A study of Bos taurus with 15 samples.

Results

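Mast cells of the cattle digestive tract were taken from single-cell RNA sequencing counts as the cells with at least 3 unique molecular identifiers (UMIs, 1 per captured RNA molecule) of *CPA3*, which encodes carboxypeptidase A3 of the mast cell granule. Among 172405 barcodes of 15 libraries, 132361 had 500 to 4000 genes and under 50000 UMIs, and 522 of these met the *CPA3* rule, or 0.394% (95% exact binomial interval 0.361 to 0.430%). Because the cells were chosen by *CPA3* in the same counts, their difference from other cells is a description, and no test of it was made. The nearest reference was the 56250 other cells with at least 1 UMI of *PTPRC*, the gene of the pan-leukocyte antigen CD45 (below, other *PTPRC* cells).

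Mast cells are long-lived granulated leukocytes of barrier tissues that develop under KIT signaling, the receptor of stem cell factor, and carry IgE on the high-affinity Fc epsilon receptor. On activation they release stored histamine, proteases, and heparin-like proteoglycan, and they make leukotrienes and prostaglandins anew. In the gut they are known from the mucosa and submucosa, with roles in defense against parasites and in allergy.

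The libraries came from Holstein dairy cattle, 11 from newborn (NB) calves and 4 from adult (AD) cattle, with 1 library for each tissue and stage, made with the 10x Genomics 3' method. The NB tissues, from 3 calves, were the large intestine (cecum, colon, and rectum), the small intestine (duodenum, jejunum, and ileum), the abomasum, the forestomach (reticulum and omasum), the salivary gland, and the liver, and the calf behind each library was not given in the sources used here. AD duodenum, jejunum, cecum, and colon were all from 1 lactating cow, after the outer muscle was stripped, as it was for the NB gut. AD duodenum and cecum were dissociated with a lamina propria kit and AD jejunum and colon with a multi tissue kit. The NB gut was instead treated with EDTA and trypsin before its enzymes were added. For the NB small and large intestine these enzymes came from a propria dissociation kit of the same maker. AD rectum was not analyzed here, so for the NB rectum, stage, tissue, animal, and dissociation cannot be told apart. Intervals below cover counting error only.

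Total UMIs ranged from 17707625 to 129458578 per library. The median UMI count of the mast cells was 1732.5 to 3975 over the 13 libraries that had any, below the 3730 to 11544 of the other *PTPRC* cells there. Of 130168 distinct barcodes kept, 2174 occurred in 2 or more libraries, but no barcode was a mast cell in more than 1 library, and 20 mast cell barcodes were also kept, as other cells, in another library. No doublet caller was run. A mast cell was instead counted as mixed when it held 2 or more UMIs over 9 markers of other lineages (*CD3E*, *MS4A1*, *CD79A*, *C1QA*, *C1QB*, *CSF1R*, *EPCAM*, *COL1A2*, and *PECAM1*), which applied to 82 of the 522. A further 46 barcodes had 3 or more *CPA3* UMIs outside the limits, 42 with too few genes and 4 with too many.

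Most *CPA3*-selected cells also held other mast cell genes. Of 14 markers listed for mast cells, 11 had an identifier in the files, and 518 of the 522 cells carried a UMI of at least 1 of the 10 markers other than *CPA3*, and 511 of at least 2. *KIT* was found in 451 cells, or 86.4% (83.2 to 89.2%). In contrast, only 139 cells, or 26.6% (22.9 to 30.6%), held a UMI of *PTPRC*. Around the limit, the 115 cells with 2 *CPA3* UMIs had a median of 4 other markers and 59.1% had *KIT*, and the 79 cells with 3 *CPA3* UMIs had a median of 5 and 79.7% had *KIT*. Below these lay 261 cells with 1 *CPA3* UMI, of which 62.1% were mixed, 31.8% had *KIT*, and 41.0% had at least 2 other markers.

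Basophils share granules and the IgE receptor with mast cells, and of their 7 listed markers only *CCR3* and *ENPP3* had an identifier, which limits this comparison. These summed to 0 to 6.67 CPM (counts per 1000000 UMIs) in the mast cells of the 7 libraries described below. *ANO1*, the defining marker of the interstitial cells of Cajal, which also express *KIT*, had 0 UMIs in the mast cells of all 7 libraries. The eosinophil markers summed to 0 to 6.67 CPM. Of them only *CCR3*, also on the basophil list, had UMIs in these cells, so the 2 sums are not independent.

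The NB large intestine libraries held the highest shares of mast cells. There were 135 mast cells among 6395 cells of NB cecum, or 2.11% (1.77 to 2.49%). NB colon held 100 of 4803, or 2.08% (1.70 to 2.53%), and NB rectum 105 of 7628, or 1.38% (1.13 to 1.66%). These intervals lay above those of all other libraries. In the AD cow the share was 0.397% (0.289 to 0.533%) in jejunum with 44 cells, 0.279% (0.187 to 0.401%) in duodenum with 29, 0.268% (0.173 to 0.395%) in colon with 25, and 0.124% (0.0643 to 0.217%) in cecum with 12. The order of the AD tissues thus differed from that of the NB libraries, with cecum lowest, but the interval of AD cecum lay apart from that of AD jejunum alone, and those of AD duodenum, jejunum, and colon overlapped.

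In the NB small intestine, jejunum held 33 of 13105 cells (0.252%), ileum 17 of 7566 (0.225%), and duodenum 10 of 8484 (0.118%). Their intervals overlapped with each other and, for jejunum, with that of AD jejunum. Fewer were found in NB abomasum (7 of 10004), salivary gland (3 of 2698), and liver (2 of 12734). None was found in the forestomach, whose libraries held only 14 and 11 other *PTPRC* cells. In NB reticulum, 0 of 7512 cells allows a share of up to 0.0399%, and 0 of 10974 in NB omasum up to 0.0273%.

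These shares depend on which other cells each dissociation released. Relative to the leukocytes alone (mast cells and other *PTPRC* cells together), mast cells made up 5.57% in NB colon, 5.01% in NB cecum, 4.32% in NB rectum, and 1.17% in NB jejunum, compared with 0.365, 0.609, and 0.317% in AD duodenum, jejunum, and colon and less in AD cecum. With either denominator, the lowest NB large intestine library lay above the highest AD library. For shares of all cells that ratio was 3.47, and 1.79 when 10 *CPA3* UMIs were required.

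**Figure D1:**
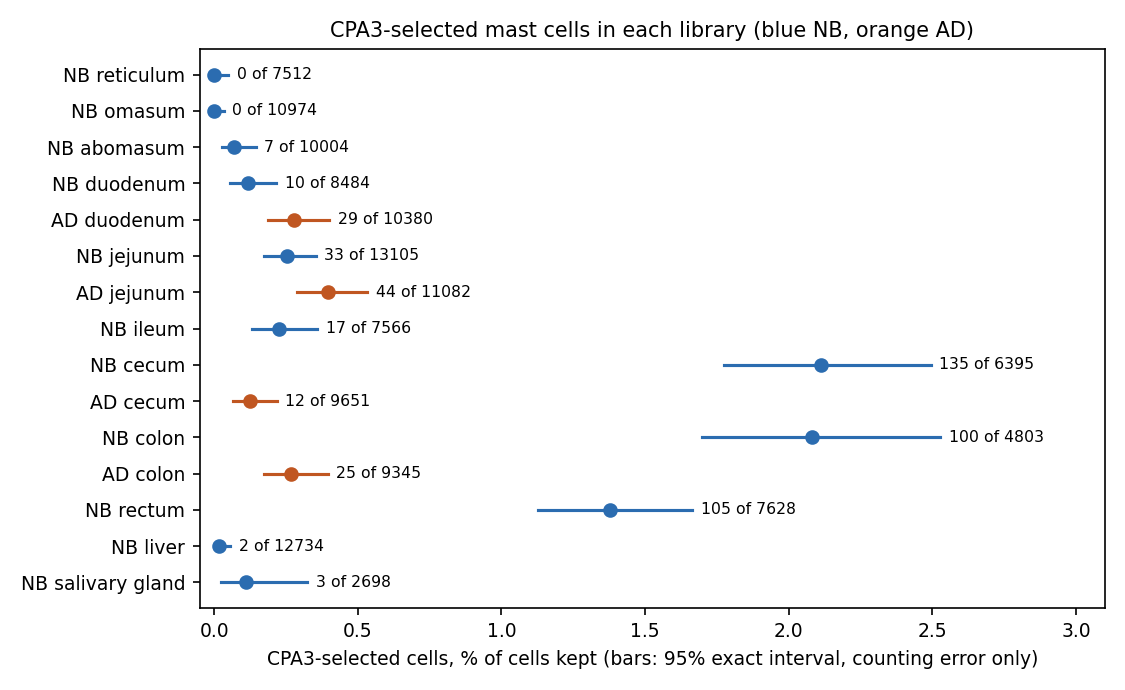
Share of *CPA3*-selected mast cells among the cells kept in each library, in percent, with 95% exact binomial intervals; blue is NB and orange AD, and the counts stand beside each point. NB cecum, colon, and rectum sit at 1.38 to 2.11%, and every other library is at 0.397% or below.

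For gene levels, UMIs were summed over the mast cells of a library and given as CPM. The 7 libraries with at least 20 mast cells were used (NB jejunum, cecum, colon, and rectum and AD duodenum, jejunum, and colon), which held 471 of the 522 cells, and 6 smaller libraries held the other 51. A gene was compared when its mean was 50 CPM or more in the mast cells or in the other *PTPRC* cells, and it was called higher or lower when the log2 ratio, with 10 CPM added to both sides, was past 1 in the same direction in every one of the 7 libraries. Of 2942 genes compared, 72 were higher in the mast cells (2.45%) and 77 lower (2.62%), 8 and 6 of them without a symbol. With the median over the 7 libraries taken for each gene, here and for the lists below, the median log2 ratio of all genes compared was -0.17, and with the ratios of each library centered on their median 82 genes were higher and 56 lower.

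Granule proteins led the genes called in all 7 libraries when these were ordered by their smallest log2 ratio. *PTI*, the bovine pancreatic trypsin inhibitor, was at 16142 CPM in NB jejunum, 22887 in NB cecum, 39049 in NB colon, 21742 in NB rectum, 20847 in AD duodenum, 20278 in AD jejunum, and 16435 in AD colon, compared with 3.30 to 109 CPM in the other *PTPRC* cells. It was thus high in each library, highest in NB colon, and its log2 ratio was 8.36 to 10.58. *GZMB*, the serine protease granzyme B, has 2 identifiers in the files, and whether reads were shared between them was not tested, so their separate levels are uncertain. The first (ENSBTAG00000053015) was at 30509, 23453, 17729, and 19065 CPM in the NB libraries in the same order, and at 48720.0, 47762, and 18345 CPM in AD duodenum, jejunum, and colon, with 11.8 to 64.2 CPM in the other *PTPRC* cells. The AD small intestine stood above all other libraries, and AD colon fell within the NB range. Together, *PTI* and both *GZMB* identifiers took 3.51 to 7.75% of the UMIs of the mast cells and 0.00228 to 0.0854% of those of the other *PTPRC* cells.

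Among the classical granule proteases, chymase and cathepsin G had no match here, and *CPA3* itself, the basis of the selection, was at 1407 to 2779 CPM, with its highest values in the 3 AD libraries. The limit of 3 *CPA3* UMIs is a larger share of a cell with fewer UMIs. Median UMIs of the mast cells were 1991 to 2798 in these AD libraries and 2834 to 3975 in the 4 NB libraries. The part of the selection in this order was not tested. The tryptase *TPSB2* varied between libraries. It was at 662 CPM in NB jejunum, 579 in NB cecum, 2542 in NB colon, and 1348 in NB rectum, whereas AD duodenum had 97.1, AD jejunum 787, and AD colon 132. In the other *PTPRC* cells it was between 0 and 3.21 CPM. The NB and AD values overlapped through AD jejunum. Of the 12 granule protease genes listed, 7 identifiers were found and 6 compared, of which 3 were higher (*CPA3*, *TPSB2*, and the first *GZMB*) and 0 lower, *CPA3* through the choice of the cells.

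Genes of histamine and proteoglycan were higher throughout. *HDC*, which makes histamine, was at 303 to 559.9 CPM against at most 0.940 CPM in the other *PTPRC* cells, and *SLC18A2*, the vesicular transporter that loads amines into granules, at 54.6 to 291 CPM against at most 6.70. *SRGN*, the serglycin core protein of granule proteoglycan, was abundant in all leukocytes, at 1108 to 2658 CPM, but reached 7013 to 9127 CPM in the NB mast cells, 29390.0 in AD duodenum, 21191 in AD jejunum, and 8916 in AD colon. *NDST2*, which sulfates heparin, was at 84.9 to 282 CPM. These 4 were the only genes of the 14 listed that passed the expression limit, and all 4 were higher, with a median log2 ratio of 3.23. *HS3ST1* and *HS6ST1*, named after their values were seen, are further heparan sulfate sulfotransferases and were also higher, *HS3ST1* at 239 to 711 CPM.

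Of the IgE receptor chains, alpha and beta were higher and the gamma chain *FCER1G*, which other Fc receptors share, was not called. *FCER1A*, the alpha chain, was at 409.7, 294, 1766, and 421 CPM in NB jejunum, cecum, colon, and rectum, and at 934, 659.9, and 316 CPM in AD duodenum, jejunum, and colon. NB colon was thus well above the rest, and the other *PTPRC* cells held 4.47 to 90.2 CPM, dendritic cells being another known source. *MS4A2*, the beta chain, was at 27.3 to 158 CPM against at most 0.235 CPM. The signaling genes downstream of the receptor are shared with other leukocytes, and of 9 genes of this list compared only these 2 were called, with a median of 1.10.

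Of the receptors, *KIT* was at 314 CPM in NB jejunum, 778 in NB cecum, 587 in NB colon, 941 in NB rectum, 1565 in AD duodenum, 1846 in AD jejunum, and 2660.2 in AD colon, against 3.78 to 38.2 CPM in the other *PTPRC* cells. All 3 AD libraries were above all 4 NB libraries, and AD cecum, with 12 cells, was at 3137 CPM. *IL1RL1*, the receptor of IL-33, and *HRH4*, a histamine receptor, were also called higher, the first at 12.1 to 216 CPM and the other at 12.1 to 171 CPM, so that 3 of 5 receptors compared were higher. In AD duodenum each of these calls rested on 1 UMI. *MRGPRX2*, the receptor through which basic secretagogues act on human mast cells, had 0 UMIs in the mast cells of the 7 libraries. *VIPR2*, a receptor of vasoactive intestinal peptide, was at 369 to 801 CPM against 1.23 to 10.4 CPM.

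The lipid mediator genes held *LTC4S*, the leukotriene C4 synthase, at 3789.8, 4347, 3968, and 2869 CPM in the NB libraries and 1820.2, 2713, and 1725 CPM in the AD libraries, with 3.07 to 34.1 CPM in the other *PTPRC* cells. By value each NB library was above each AD library, but NB rectum and AD jejunum were close. *HPGDS* and *PTGS1*, which act in the synthesis of prostaglandin D2, and *HPGD*, which breaks prostaglandins down, were higher too, at 79.0 to 173, 133 to 760.3, and 369 to 1605 CPM. Of 7 genes compared, 4 were higher and 0 lower, with a median of 3.91.

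*GATA2*, a transcription factor that mast cells require, was called higher in the mast cells. It was at 758, 946, 1109, and 1154 CPM in NB jejunum, cecum, colon, and rectum and 1044, 1393, and 1093 CPM in AD duodenum, jejunum, and colon, and at 0.379 to 4.54 CPM in the other *PTPRC* cells. Here NB and AD overlapped. *MEIS2*, a homeobox factor, was the other transcription factor called of 9 compared (27.3 to 105 CPM). *GATA1* reached 6.83 to 73.3 CPM, below the expression limit on average, with at most 0.157 CPM in the other *PTPRC* cells.

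Other named genes have less familiar places in mast cells. *TH*, tyrosine hydroxylase of catecholamine synthesis, was at 109 to 711 CPM against at most 4.54 CPM, and *GNG11*, a G protein gamma subunit, at 133 to 3549.9 CPM against at most 52.3 CPM. Both were lowest in AD duodenum. *GPM6A*, *AGPAT2*, *SLC38A11*, *GCSAML*, *ENC1*, *YBX3*, and *PMP22* completed the genes named by rule, with smallest log2 ratios of 2.60 to 3.41. Of the 8 higher genes without a symbol, ENSBTAG00000049782, named after its values were seen, was at 1949 to 5509.8 CPM with a log2 ratio to the other *PTPRC* cells of 7.61 to 8.30.

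**Figure D2:**
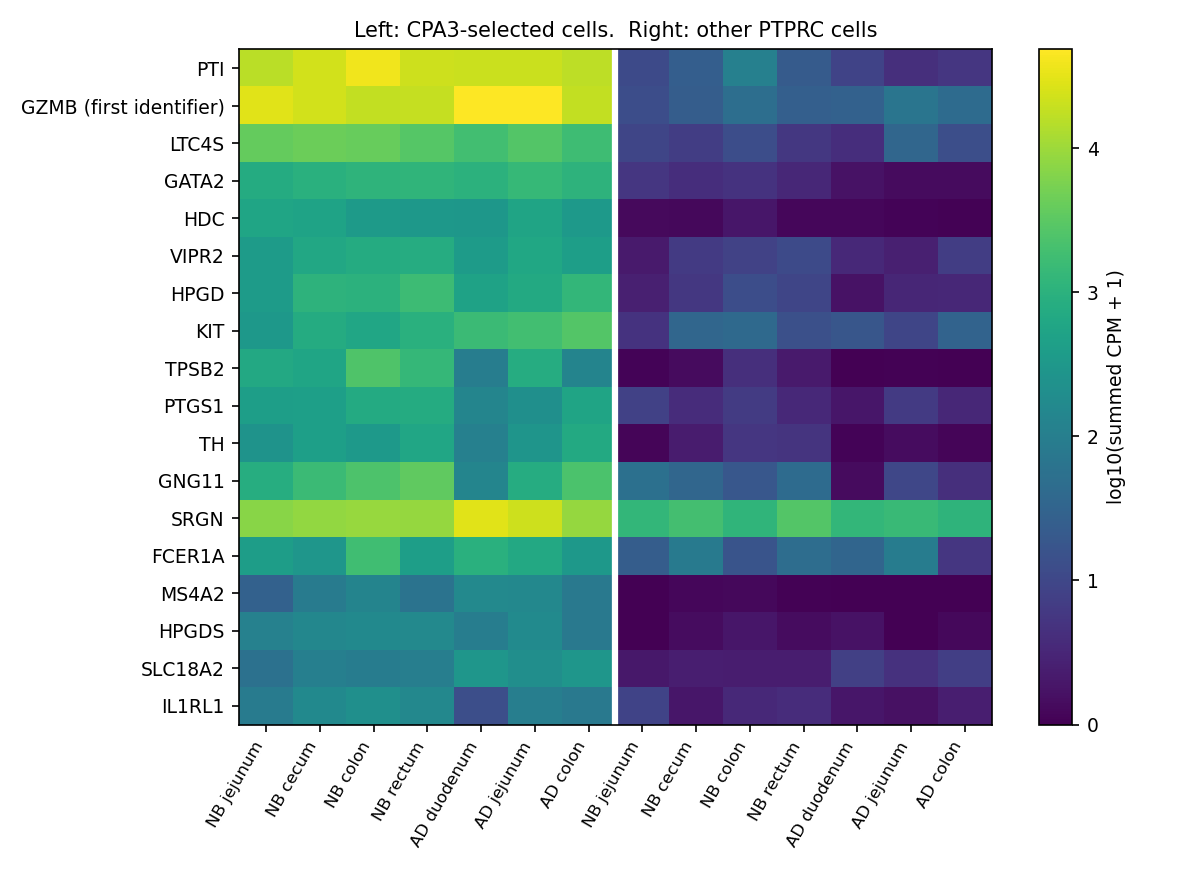
Summed level of 18 genes, as log10(CPM + 1), in the *CPA3*-selected mast cells (left 7 columns) and in the other *PTPRC* cells (right 7 columns) of the 7 libraries. *GATA2* lies between 758 and 1393 CPM in every mast cell column, and *SRGN* is the gene of the plot with the highest level in the other *PTPRC* cells (1108 to 2658 CPM).

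The levels were also seen cell by cell. With each cell thinned to 1000 UMIs, which left out 3 of 471 mast cells, *PTI* was found in 96.6 to 100% of mast cells and in 0.0895 to 1.84% of other *PTPRC* cells. The other *PTPRC* cells could hold up to 2 *CPA3* UMIs, and the source of *PTI* in them was not tested. *GATA2* was found in 37.9 to 72.0% against at most 0.430%, and *HDC* in 10.3 to 50.0% against at most 0.178%. For *KIT* the shares were 21.2 to 100% against 0.680 to 4.58%. Without thinning, *PTI* was in 100% of the mast cells of each library, *GATA2* in 69.0 to 94.8%, and *HDC* in 37.9 to 78.5%.

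Some genes of antigen presentation and of phagocytes were lower. *CD74*, the invariant chain of class II MHC, was at 65.8 to 2349 CPM in the mast cells and at 2059 to 21582 CPM in the other *PTPRC* cells, and *BOLA-DRA*, a class II alpha chain, at 26.3 to 3229.8 against 977 to 15103 CPM. Of 9 MHC genes compared, 0 were higher and 4 lower (*BOLA-DRA*, *BOLA-DMA*, *BOLA-DMB*, and *CD74*), with a median of -1.84. The others named by rule were *BLA-DQB*, the complement gene *C1QA*, the perforin-like *MPEG1*, *DNASE1L3*, the chemokine *CCL3*, *JAML*, and the IL-7 receptor chain *IL7R*. The calls of *CD74*, *BOLA-DRA*, *BLA-DQB*, *C1QA*, *MPEG1*, and *JAML* ended when libraries of 10 or more mast cells were used, and those of these genes other than *CD74* also at 2 *CPA3* UMIs. *PTPRC* was lower as well, but the other cells had been chosen for it. Of the T cell markers 3 of 7 compared were lower, and of the macrophage markers 4 of 7.

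Some mast cells carried genes of other cells. *C1QA* was at 1584 CPM in the mast cells of NB jejunum and 157 in NB cecum, but at 6.67 in NB colon and 5.47 in NB rectum. NB jejunum held 10 mixed cells of 33, NB cecum 24 of 135, NB colon 9 of 100, and NB rectum 12 of 105. Summed over the 9 markers of macrophages and monocytes, the level in mast cells was 73.3 to 3838 CPM over the 7 libraries, and 1031 to 23368 CPM in the other *PTPRC* cells. The 8 T cell markers found summed to 18.7 to 84.8 CPM in the NB libraries and 86.7 to 1014 CPM in the AD libraries. In the other *PTPRC* cells they summed to 250 to 698 CPM in NB and 1727 to 4522 CPM in AD.

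Cytokine genes were mostly low. Of 10 compared, 0 were higher and *CCL3* was lower. *IL13*, a type 2 cytokine, was at 275 CPM in NB colon, 65.6 in NB rectum, 26.7 in NB cecum and AD jejunum, 20.5 in NB jejunum, and 0 in AD duodenum and colon. *IL4* reached at most 2.67 CPM and *IL5* had 0 UMIs. Exocytosis genes (6 compared, median 1.33), lysosome genes (13, median -0.31), division genes (10, median -0.73), and interferon-stimulated genes (4, median -0.80) had no gene called in either direction, and of 12 adhesion genes *ITGAL*, the integrin alpha L chain of other leukocytes, was lower. *MKI67*, a marker of dividing cells, was found in 0 to 8.89% of the mast cells without thinning and, thinned, in 0 to 4.00%, against 0.924 to 9.15% of the other *PTPRC* cells. Of 22 immediate early and stress genes, *EGR1* alone was higher, with a median of 0.21.

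Mast cells of NB rectum were then set against those of AD duodenum, jejunum, and colon, 105 cells with 365649 UMIs against 29, 44, and 25 cells with 82410, 150014, and 75935 UMIs. A gene was compared at 50 CPM or more in NB rectum or in the mean of the AD libraries, and called when it was past a log2 ratio of 1 against each AD library. Of 3001 genes, 195 were above every AD library (6.5%) and 111 below (3.7%), and the median log2 ratio, as the mean over the AD libraries, was 0.05. Poisson intervals of NB rectum and all AD libraries were apart for 99 and 36 of these. The same comparison in the other *PTPRC* cells called 257 of 3165 genes above and 158 below, and 94 genes (of 195 and of 257) were above in both cell sets and 33 (of 111 and of 158) below in both.

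The listed mast cell markers were called in neither direction. Of the 11 compared, *KIT*, *GATA2*, *HDC*, *FCER1A*, and *MS4A2* among them, 0 were above and 0 below (*CPA3*, by which the cells were chosen, is 1 of the 11), and *PTI* and *LTC4S* were not called either. The same held for the 5 receptors, the 4 amine and proteoglycan genes, the 9 genes of the IgE receptor, the 7 exocytosis genes, and the 7 MHC genes compared, while *ITGB3*, the integrin beta 3 chain, was below AD (41.0 against 267, 160.0, and 132 CPM). Over all 3001 genes compared, 6.5% were above and 3.7% below, so lists this short can hold no call at that share. *GATA2* in NB rectum, at 1154 CPM (1047 to 1270 CPM), lay between AD colon and AD jejunum. *KIT*, at 941 CPM (844 to 1046 CPM), was below each AD library, by log2 ratios of -0.73, -0.97, and -1.49 against duodenum, jejunum, and colon.

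Stress genes were the listed group with the most genes above AD, by number and not by share. Of 23 compared, 12 were above and 0 below, with a median log2 ratio of 2.37. In the other *PTPRC* cells the median of the same genes was 1.99, so they stood above AD there too. *HSP90AA1*, a heat shock chaperone, was at 5499.8 CPM in NB rectum and 522, 747, and 1054 CPM in AD duodenum, jejunum, and colon. *HSPH1*, a cochaperone, was at 883 CPM against 84.9, 86.7, and 79.0 CPM. *ATF3*, an early stress transcription factor, was at 1219.7 CPM against 0, 6.67, and 158 CPM. The AD values did not overlap with those of the other NB libraries either, where *ATF3* was at 1417 to 4432 CPM. *JUN* and *EGR1* followed another order, since AD colon (11984 and 3055 CPM) was not lower than NB rectum (10584 and 1279.9 CPM), whereas AD duodenum and jejunum were. NB and AD tissues were dissociated differently, and the part of this in the stress genes was not tested.

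Named by rule above AD were *GRO1*, *CD83*, *IGFBP7*, *S100A12*, *CXCL2*, *IL22*, *PLVAP*, *PNP*, *INSIG1*, *ZFAND2A*, *APOA1*, *IFI27*, *UBE2C*, *FCN1*, and *CAV1*, and the number of the 105 cells that carried them ran from 1 to 59. *CD83*, a surface protein of activated leukocytes, was in 46 of the 105 cells (103 UMIs, 282 CPM), at 0 in all 3 AD libraries, and so at least 29.0-fold higher than the 3-UMI floor of the AD cells together. *INSIG1*, a sensor of sterol synthesis, was in 59 cells at 519.6 CPM against 0, 26.7, and 0 CPM, and at 1318, 726, and 1242 CPM in NB jejunum, cecum, and colon. *ZFAND2A*, a heat shock-induced gene, was in 34 cells and *PNP*, of purine metabolism, in 32. The other *PTPRC* cells of NB rectum held *CD83* at 935 CPM, *ZFAND2A* at 752 CPM, and *PNP* at 343 CPM, all above the 282, 289.9, and 148 CPM of the mast cells, so a part of free RNA in these UMIs cannot be told apart, and *INSIG1* at 301 CPM.

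Other names rested on few cells. *IL22*, a lymphocyte cytokine, had all 55 UMIs in 1 cell, and *FCN1*, a monocyte gene, all 37 UMIs in 1 cell, both mixed cells. For *S100A12*, a neutrophil gene, 63 of 76 UMIs came from 1 cell, for *APOA1*, an apolipoprotein, 36 of 39, and for the neutrophil-attracting chemokine *GRO1* 159 of 241. All 3 neutrophil genes compared (*S100A8*, *S100A9*, and *S100A12*) and both endothelial genes (*VWF* and *PLVAP*) were above AD, and of the *PLVAP* UMIs 52 of 55 were in mixed cells. With mixed cells left out and the libraries kept, *S100A12*, *IL22*, *IGFBP7*, *PLVAP*, *FCN1*, and *APOA1* were no longer called. This setting was chosen after the data were seen, and it counted 177 genes above and 123 below.

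Division genes stood above AD as well, 6 of 10 compared (*TOP2A*, *BIRC5*, *UBE2C*, *PCNA*, *RRM2*, and *TUBB*), with a median of 1.69 and 1.00 in the other *PTPRC* cells. *PCNA*, of DNA replication, was at 213 CPM against 36.4, 46.7, and 52.7 CPM. *UBE2C*, a mitotic gene, was at 101 CPM against 0 in each AD library, but its 37 UMIs came from 7 cells. *MKI67*, at 52.0 CPM against 0, 13.3, and 26.3 CPM, was not called. Of 9 cytokine genes compared, 3 were above AD (*IL13*, *CSF1*, and *CXCL8*) and 1 below (*CCL5*). *CSF1* was at 199.7 CPM against 0, 20.0, and 52.7 CPM with 0.21 as its log2 ratio in the other *PTPRC* cells. Of 9 lipid mediator genes 1 was above (*PTGS2*), and of 12 lysosome genes 1 (*GUSB*), beside 6.5% of all genes compared.

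Other genes above AD, named after their values were seen, were abundant in the mast cells. *KCNE5*, a potassium channel subunit, was at 410.2 CPM in NB rectum, 189 in NB colon, 90.7 in NB cecum, and 13.7 in NB jejunum, compared with 121, 40.0, and 26.3 CPM in AD duodenum, jejunum, and colon and 1.22 CPM in the other *PTPRC* cells of NB rectum. It was highest in NB rectum but overlapped between NB and AD. *LGALS3*, which encodes galectin-3, was at 3107 CPM against 109, 260.0, and 1356 CPM, with NB values of 437 to 3107 CPM, and *VIM*, the intermediate filament vimentin, at 6635 CPM against 400.4, 540.0, and 2159.7 CPM. In the same tissue, the log2 ratio of NB over AD for *VIM* was only 0.42 in colon and 0.29 in jejunum. For *LGALS3* it was 0.41 and 0.73. *ANXA1*, annexin A1 of the response to glucocorticoids, was at 2349, 3384, 4843, and 3903 CPM in the NB libraries and 328, 633, and 1580.3 CPM in the AD libraries. Here every NB library was above every AD library, and within the AD cow the colon was highest for *LGALS3*, *VIM*, and *ANXA1*. The 6 fibroblast markers, a cell type that also expresses *VIM*, summed in the mast cells to 778, 2284, 13.3, and 1447 CPM in NB jejunum, cecum, colon, and rectum, to 0 in AD duodenum and jejunum, and to 2014.9 CPM in AD colon. Their part in these genes was not tested.

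**Figure D3:**
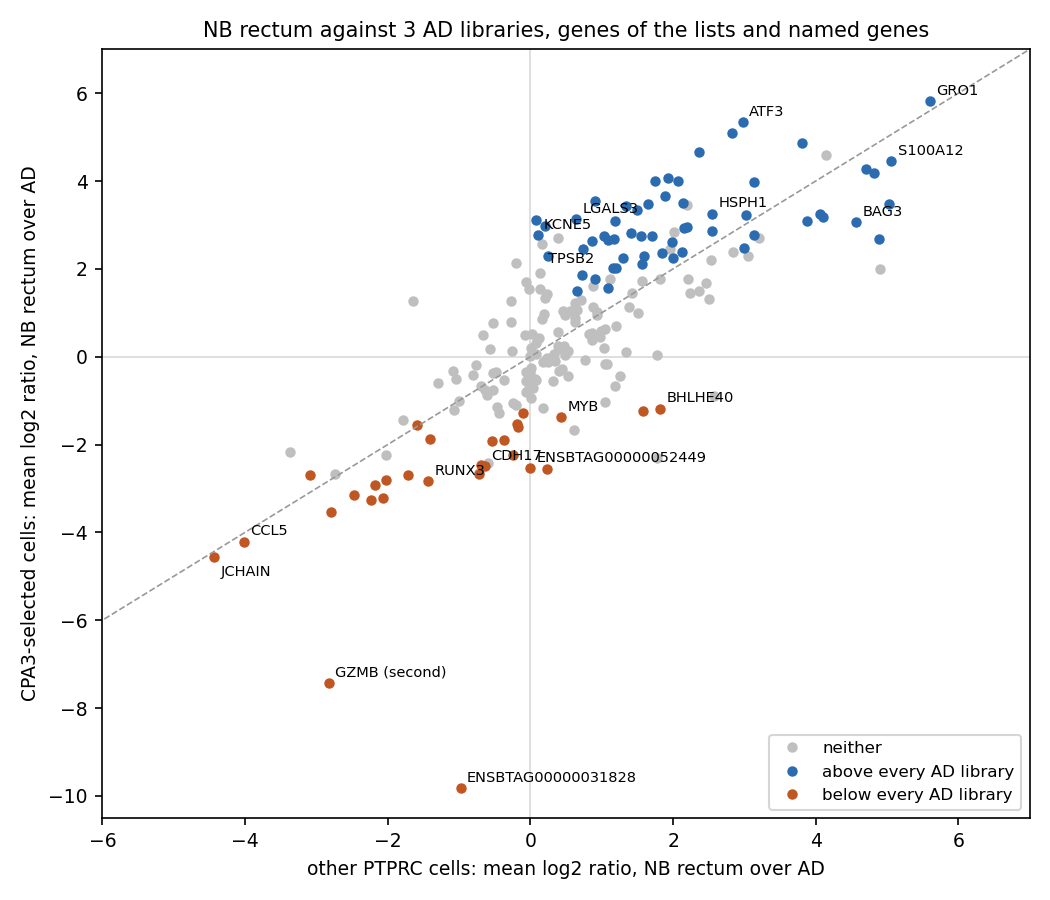
Mean log2 ratio of NB rectum over the 3 AD libraries (10 CPM added) in the other *PTPRC* cells (horizontal) and in the *CPA3*-selected mast cells (vertical), for the listed and named genes; blue genes were above and orange genes below every AD library, and the dashed line marks equal ratios. *ATF3* and *HSPH1* were above AD in both, whereas ENSBTAG00000031828 (-9.82) and ENSBTAG00000052449 (-2.54) were below AD in the mast cells with ratios of -0.98 and 0.00 in the other *PTPRC* cells.

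The gene furthest below AD has no symbol. ENSBTAG00000031828, named after its values were seen, was at 16.4 CPM in NB rectum (6.02 to 35.7 CPM), 88.8 in NB jejunum, 219 in NB cecum, and 20.0 in NB colon, and at 74772 CPM in AD duodenum, 43396 in AD jejunum, and 4201 in AD colon. In NB cecum, 124 of 135 mast cells had 0 UMIs of it, and in the cell with the most it made up 8.95% of the UMIs. In the other *PTPRC* cells it was at 0.0331 to 28.0 CPM. All AD libraries were far above all NB libraries, and AD duodenum was also far above AD colon. The log2 ratio of NB rectum was -11.47 against AD duodenum, -10.68 against AD jejunum, and -7.32 against AD colon. AD cecum, outside the comparison, was at 24662 CPM, and NB ileum at 215 CPM. Thinned to 1000 UMIs, 86.2% of the mast cells of AD duodenum, 64.3% of AD jejunum, and 56.0% of AD colon had a UMI of it, against 1.00 to 6.06% in the NB libraries (without thinning 86.2, 72.7, 72.0, and 2.86 to 9.09%).

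Another gene without a symbol, ENSBTAG00000052449, was also higher in AD. It was at 1598 CPM in NB jejunum, 1659.8 in NB cecum, 1826 in NB colon, and 1690.1 in NB rectum, and at 10205, 8033, and 11773 CPM in AD duodenum, jejunum, and colon, compared with 0.190 to 3.13 CPM in the other *PTPRC* cells. The NB values lay close together, and the AD mean was 5.92-fold that of NB rectum. In the NB libraries only part of the cells held it, with 0 UMIs in 15 of 33 cells of jejunum, 63 of 135 of cecum, 41 of 100 of colon, and 55 of 105 of rectum, compared with 0 of 29, 6 of 44, and 1 of 25 in AD duodenum, jejunum, and colon. The NB and AD libraries did not overlap, and since all AD cells were from 1 animal, stage and animal cannot be told apart.

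By rule, the genes named below AD included *GZMB* (the second identifier), *CCL5*, *JCHAIN*, *GIMAP4*, *GIMAP7* with 2 identifiers, *UBD*, *RUNX3*, *SCIN*, *PRF1*, *ACSL6*, *MBNL1*, *RASSF5*, and *NDE1*. The second *GZMB* identifier (ENSBTAG00000010057) was at 0 in NB rectum, 2.22 CPM in NB colon, 75.1 in NB jejunum, and 494 in NB cecum, and at 7936 CPM in AD duodenum, 1926 in AD jejunum, and 316 in AD colon. The AD libraries thus differed widely among themselves. The 24 UMIs of AD colon were all in mixed cells, AD cecum had 0, and the other *PTPRC* cells reached 806 CPM in AD colon. *GNLY*, the cytotoxic granule protein granulysin, was at 2581, 1792, 1571, and 963 CPM in the NB libraries and 9526, 12299, and 2081 CPM in the AD libraries. It overlapped between stages through NB jejunum and AD colon, and the other *PTPRC* cells held it at 5.23 to 1153 CPM.

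Of the lymphocyte marker lists, 0 of 3 T cell genes and 0 of 1 B cell gene compared were below AD. In the NK and innate lymphoid cell list 2 of 2 were below (*NKG7* and *GNLY*). In the plasma cell list 1 of 1 was below (*JCHAIN*), beside 3.7% of all genes compared. The median log2 ratios were nonetheless alike for T cell (-2.23), B cell (-2.17), and NK and innate lymphoid cell genes (-2.12). In the other *PTPRC* cells they were -2.02, -3.37, and -2.34. The NK and innate lymphoid cell list was not low in mast cells. It summed to 1026 to 12426 CPM there and to 374 to 1937 CPM in the other *PTPRC* cells. In each of the 7 libraries the mast cells had the higher sum. *CCL5*, a chemokine of cytotoxic lymphocytes, was at 38.3 CPM in NB rectum and 522, 520.0, and 2542 CPM in the AD libraries, where the other *PTPRC* cells held 1857, 1830, and 8266 CPM. *JCHAIN*, of antibody-secreting cells, was at 8.20 CPM against 1128, 373, and 171 CPM, and the other *PTPRC* cells of the 7 libraries held 10.5 to 15598 CPM. Mixed cells held 54 of its 93 UMIs in AD duodenum, 10 of 56 in AD jejunum, and 2 of 13 in AD colon. With mixed cells left out and the libraries kept, *CCL5*, *UBD*, *PRF1*, *GIMAP4*, both *GIMAP7* identifiers, and the second *GZMB* were no longer called. *RUNX3*, a transcription factor of cytotoxic and innate lymphocytes, kept its call. It was at 13.3 to 34.1 CPM in the 4 NB libraries and 461, 240.0, and 237 CPM in AD duodenum, jejunum, and colon, and in AD cecum at 274 CPM. The other *PTPRC* cells of the 7 libraries held *RUNX3* at 80.0 to 450 CPM. *SCIN*, the actin-severing scinderin known from secretory cells, was at 30.1 CPM in NB rectum and 376, 253, and 211 CPM in the AD libraries, and *NDE1*, a centrosome gene, at 24.6 CPM against 206, 133, and 132 CPM. Mixed cells held 4 of 31, 18 of 38, and 9 of 16 *SCIN* UMIs in AD duodenum, jejunum, and colon.

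Among 12 transcription factors compared 3 were below AD and 0 above, namely *RUNX3*, *SPI1*, the myeloid factor PU.1 (49.2 against 121, 133, and 132 CPM), and *BHLHE40* (191 against 449, 393, and 500.4 CPM). In the other *PTPRC* cells *SPI1* and *BHLHE40* had mean log2 ratios of 1.58 and 1.82, opposite in sign to the mast cells. Further genes below AD, named after their values were seen, were *MYB*, a progenitor transcription factor (107 CPM against 255, 340.0, and 289.7 CPM), and *SUCNR1*, the succinate receptor (65.6 against 231, 227, and 171 CPM). *CDH17*, an intestinal cadherin, was at 54.7 CPM against 473, 393, and 237 CPM, and it was at 0 to 54.7 CPM in all NB libraries.

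**Figure D4:**
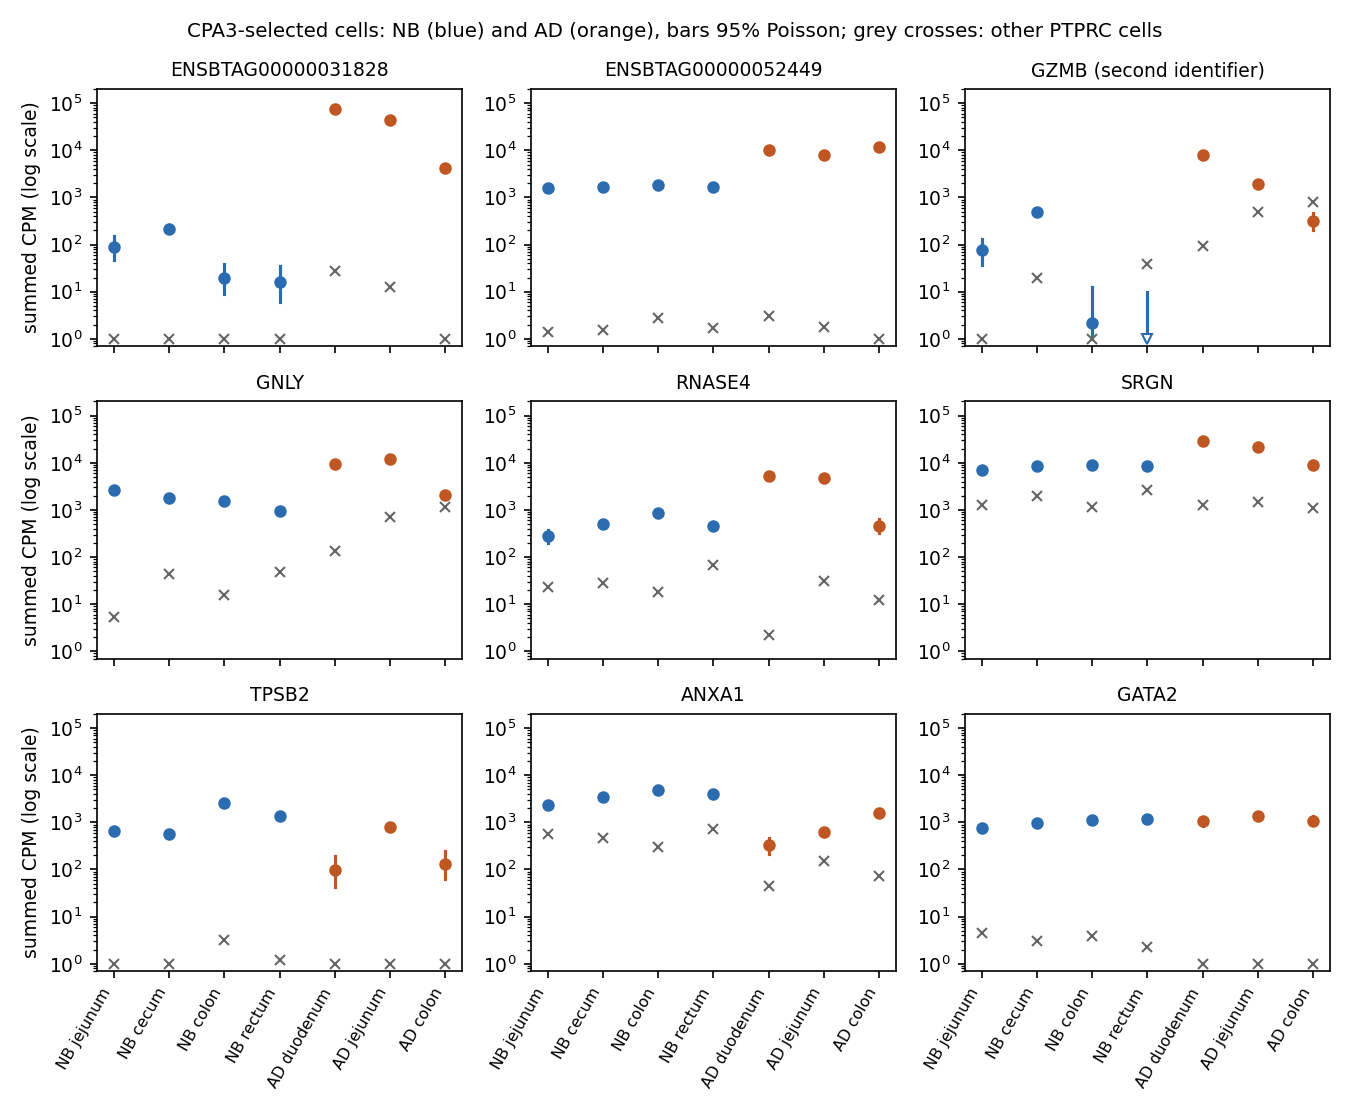
Summed CPM (log scale) of 9 genes in the *CPA3*-selected mast cells of the 7 libraries, NB in blue and AD in orange with 95% Poisson intervals, and in the other *PTPRC* cells as grey crosses; values at or below 1 CPM are drawn at 1, and an open triangle marks 0 UMIs. ENSBTAG00000052449 is at 1598 to 1826 CPM in NB and 8033 to 11773 CPM in AD, while *GATA2* overlaps between the stages.

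Within the AD cow, the small intestine and the colon also differed. Mast cells of AD colon had a median of 12.6% mitochondrial UMIs, compared with 7.01% in AD duodenum and 8.08% in AD jejunum, and summed stress genes of 34951 CPM, compared with 5024 and 5233 CPM, and the part of these in the following values was not tested. *RNASE4*, a secreted ribonuclease, was at 5206 CPM in AD duodenum and 4833 in AD jejunum but 461 in AD colon, close to the 273 to 878 CPM of the NB libraries, and *SRGN*, *GNLY*, and the first *GZMB* were likewise higher in both than in AD colon. In contrast, *GNG11*, *TH*, *HPGD*, *VIM*, and *ANXA1* were higher in AD colon than in AD duodenum and jejunum, *GNG11* at 2318 against 133 and 799.9 CPM. AD jejunum and colon were dissociated with the same kit and AD duodenum with another, and the part of dissociation in these differences was not tested. No tissue was repeated, so a difference between these libraries has no replicate error.

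Because ENSBTAG00000031828 was in some AD mast cells and not in others, the cells of each AD library were split at 10 UMIs of it, a limit chosen after the values were seen. The split was clear in AD duodenum, with 25 cells at 34 or more UMIs and 4 cells at 0. AD jejunum divided into 27 and 17 cells, with 6 cells between 5 and 19 UMIs, and AD colon into 10 and 15 cells, also with 6 in that range. Total UMIs differed too, with medians of 3446 and 1449 in AD jejunum and 3005 and 1684.5 in AD duodenum, and their part in the split was not tested. The intervals for the sets below are of summed UMIs and leave out the spread between cells. In AD duodenum, *PTI* alone made up 0.0817 to 11.7% of the UMIs of a mast cell.

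In AD jejunum, the cells above the limit held *RNASE4* at 6405 CPM (5932 to 6906 CPM) and those below at 1064 CPM (782 to 1415 CPM). *GNLY* was at 17061 against 883 CPM, the first *GZMB* at 60575 against 17051 CPM, and *SRGN* at 25923 against 9850.3 CPM. These genes were thus higher in the cells above the limit than in those below it. *RUNX3* had 35 UMIs in the former and 1 UMI in the latter. The reverse held for *GNG11*, at 283 against 2038 CPM, *HPGD*, at 340.1 against 1562.5 CPM, *VIM*, at 349.5 against 996 CPM, and *ANXA1*, at 453 against 1064 CPM. *PTI* (20434 and 19904 CPM) and *KIT* (1880.0 and 1766 CPM) had overlapping intervals, as did *CPA3*, by which all these cells were chosen. Other mast cell genes had intervals apart and were higher above the limit, namely *GATA2* at 1606 against 883 CPM, *FCER1A* at 784 against 362 CPM, and *LTC4S* at 3004 against 2015 CPM.

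The first *GZMB* had overlapping intervals in AD duodenum (49177 and 44318 CPM), and so did *FCER1A*, which was at 898 CPM above the limit and 1288 CPM below it. AD duodenum showed the same directions as AD jejunum for *RNASE4* (5626 against 1159.5 CPM), *GNLY* (10168 against 3349.7 CPM), *HPGD* (53.6 against 4767 CPM), and *ANXA1* (161 against 1932 CPM), although its lower set held only 4 cells. *VIM*, *GNG11*, and *PTGS1* had 0 UMIs in the 25 cells and 33, 11, and 11 UMIs in the 4. In AD duodenum *PTI* (17174 against 56171 CPM), *KIT* (1273 against 4380.3 CPM), *LTC4S* (1581 against 4123 CPM), and *CPA3* (2157 against 5926 CPM) were lower in the 25 cells with intervals apart. *LTC4S* thus went in the reverse direction to AD jejunum, and *GATA2* (1045 and 1031 CPM) overlapped. *TPSB2* was higher above the limit in AD jejunum (1020.3 against 226 CPM) but had 1 UMI above and 7 UMIs below it in AD duodenum. In AD colon, intervals overlapped for *RNASE4*, *GNLY*, *HPGD*, *VIM*, *ANXA1*, *GNG11*, *KIT*, and *GATA2*, whereas the first *GZMB* (22738 against 16070 CPM), *SRGN* (11543 against 7555 CPM), *PTI* (18530 against 15350 CPM), and ENSBTAG00000052449 (16021 against 9574 CPM) were higher above the limit with intervals apart. ENSBTAG00000052449 was lower above the limit in AD duodenum (9578 against 16233 CPM, intervals apart) and overlapped in AD jejunum (7898 and 8356 CPM). Of the cells above the limit, 5, 3, and 1 were mixed in AD duodenum, jejunum, and colon, and of those below 0, 4, and 5.

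**Figure D5:**
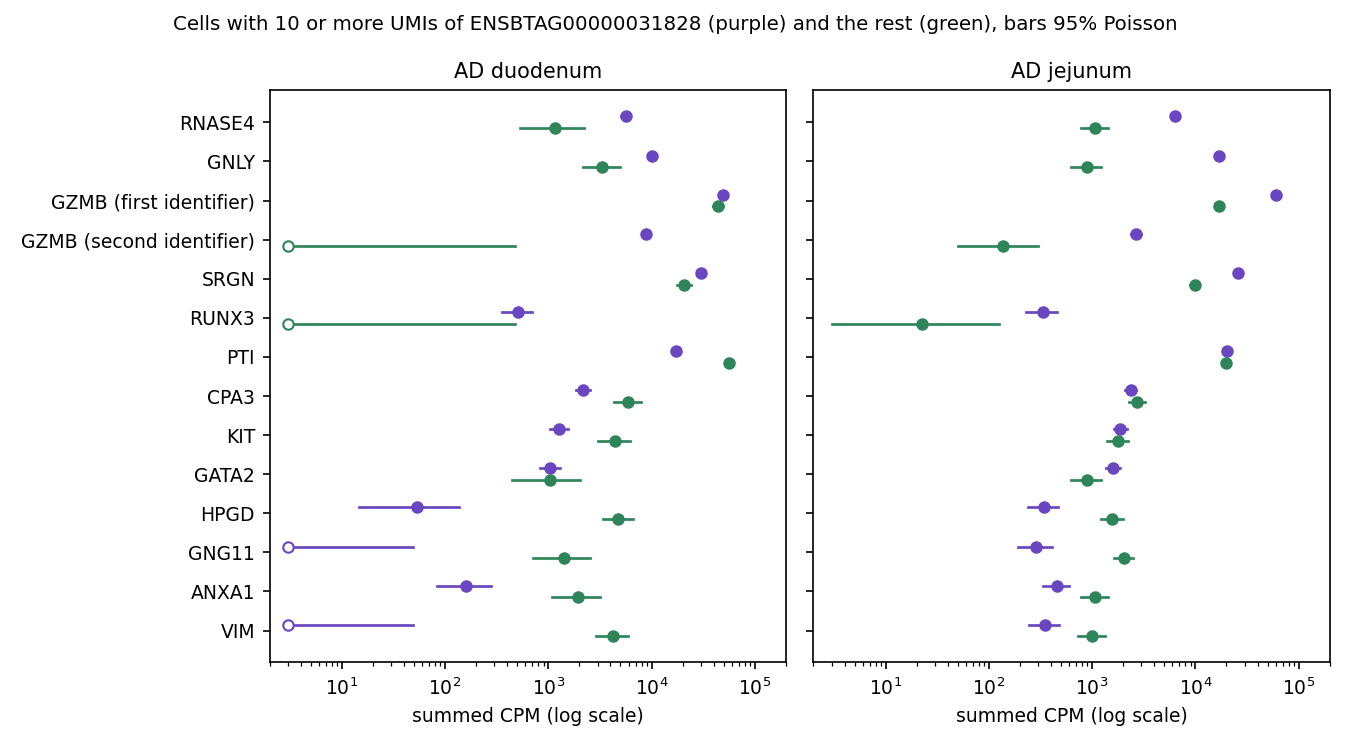
Summed CPM (log scale, 95% Poisson intervals) of 14 genes in the AD duodenum and AD jejunum mast cells with 10 or more UMIs of ENSBTAG00000031828 (purple) and in the rest (green); open circles mark 0 UMIs, drawn at the left edge. *RNASE4*, *GNLY*, and the second *GZMB* lie to the right in purple, *HPGD*, *GNG11*, *ANXA1*, and *VIM* in green, and *PTI* and *KIT* coincide in AD jejunum.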

How the data were processed

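Counts of 15 single-cell RNA sequencing libraries were used. The authors demultiplexed reads and counted UMIs per gene and barcode with Cell Ranger 3.1.0, using ARS-UCD1.2 as the cattle reference, and the deposited counts are whole numbers without normalization. The annotation release is not given in the sources used here. Every library lists 27270 genes, 7540 of them without a symbol. Gene synonyms were read from the RefSeq gene table of another assembly (ARS-UCD2.0), in which *TPSB1* is a synonym of *TPSB2*, so no coordinates are given. Total UMIs per library were 17707625 to 129458578.

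Cells had 500 to 4000 genes and under 50000 UMIs, the limits of the study's methods, and 0 mast cells had 40% or more mitochondrial UMIs. Mast cells had 3 or more *CPA3* UMIs, and other *PTPRC* cells had 1 or more *PTPRC* UMIs and fewer than 3 of *CPA3*. UMIs were summed per library and set to CPM. Groups of 1 library allow no test, so no p-value or replicate error is given. Intervals are exact Poisson for sums and exact Clopper-Pearson for shares, at 95%, and PCR or capture error is not in them. A share of 0 is limited by 3 counts of the total. The scripts were tested on simulated data. Software was matplotlib 3.10.9, pandas 2.3.3, NumPy 2.4.6, and SciPy 1.17.1 under Python 3.11.15.

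Genes were named by rule: the 20 higher genes with the largest smallest ratio, the 10 lower genes likewise, the 15 above and 15 below AD by the ratio to the nearest AD library, listed genes, *CPA3*, *KIT*, and *PTPRC*. Ribosomal and mitochondrial genes and those without a symbol were skipped. Some genes that the rules name are not reported here. Other names are said to be chosen after their values were seen. The mast cells, the lists, and the rules were chosen with earlier results of these data known. Lists held 14 functions and markers of 19 cell types. Alternatives changed the *CPA3* limit, mitochondrial filter, pseudocount, expression limit, fold, scaling, depth, mixed cells, and libraries.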

Additional observations from a re-analysis of the deposited data

How the results depend on the processing

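The total of 522 mast cells became 898 with 1 *CPA3* UMI and 123 with 10. At 10 *CPA3* UMIs only 1 library kept 20 mast cells, 264 genes were higher than in the other *PTPRC* cells and 461 lower, and the comparison of NB rectum with AD could not be made. The median ratio of no gene named by rule changed sign in these settings, but with libraries of 10 or more cells *C1QA*, *JAML*, and *MPEG1* were not lower in every library. Genes higher in mast cells (72) numbered 41 with a pseudocount of 50 CPM, 38 with an expression limit of 200 CPM, 33 with a log2 limit of 2, and 125 with the 4 libraries of 40 or more cells, and 72 to 89 with 1 library left out. Genes lower (77) numbered 30 with 2 *CPA3* UMIs, 176 with 5, 132 under 10% mitochondrial UMIs, 141 and 21 with a pseudocount of 1 and 50 CPM, 39 with an expression limit of 200 CPM, 172 and 19 with a log2 limit of 0.58 and 2, 156 with mixed cells left out, 37 and 207 with libraries of 10 or more and 40 or more cells, and 77 to 125 with 1 library left out, the most without AD colon. For NB rectum, the counts above and below AD (195 and 111) were 416 and 300 with 5 *CPA3* UMIs, 413 and 290 under 10% mitochondrial UMIs, 113 and 32 with a pseudocount of 50 CPM, 308 and 176 with an expression limit of 20 CPM, 66 and 23 with 200 CPM, 387 and 297 with a log2 limit of 0.58, 62 and 24 with 2, 315 and 327 with mixed cells left out, 438 and 478 with the only AD library of 40 or more cells, 382 and 394 with the AD cells summed, 307 and 235 with AD colon and cecum, and 308 and 290 with sums thinned to the smallest AD library (chosen after seeing the data). A pseudocount of 1 CPM gave 176 below, and libraries of 10 or more cells, which adds AD cecum, 65 below. Leaving out 1 AD library gave 214 to 353 above and 183 to 234 below, with 304 and 223 without AD jejunum, 353 and 234 without AD colon, and 183 below without AD duodenum. Settings with fewer libraries ask for fewer agreements. At 5 *CPA3* UMIs, under 10% mitochondrial UMIs, and with mixed cells left out, 5, 6, and 6 libraries remained, 2 of them AD in each case. With mixed cells left out and the libraries kept (chosen after seeing the data), 177 genes were above AD and 123 below. In that setting 79 genes were higher than in the other *PTPRC* cells and 113 lower. The cause of the other changes was not tested. Of the genes named by rule, 14 of 20 higher, 4 of 10 lower, 4 of 15 above AD, and 3 of 15 below AD kept their call in each setting. *CCL5*, *ACSL6*, *PRF1*, and the second *GZMB* lost it with AD cecum added. No paired test was made, because the labels gave no replicate numbers and each tissue and stage had 1 library. All AD tissues were from 1 cow, so the tissues shared by NB and AD are compared as values alone. Sums over 25 to 44 AD cells limit what was detectable: 1 UMI was worth 6.67 to 13.2 CPM there.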

Other observations

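Values outside the comparisons came from libraries with under 20 mast cells. AD cecum, with 12 cells, held *TPSB2* at 667 CPM, ENSBTAG00000052449 at 23878 CPM, and *GNLY* at 5803 CPM. In NB ileum, with 17 cells, *TPSB2* was at 1503 CPM, *GATA2* at 765 CPM, and *IL13* at 188 CPM. Over all 51 cells of the 6 smaller libraries, *PTI* was at 21840.0 CPM, the first *GZMB* at 26468 CPM, and *KIT* at 802 CPM, each within the range of the 7 larger libraries.

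NB colon and NB jejunum can be set beside the AD library of the same tissue. The log2 ratio of NB over AD (10 CPM added) was -2.68 in colon and -2.32 in jejunum for ENSBTAG00000052449, -7.13 and -8.78 for ENSBTAG00000031828, and -3.40 and -2.50 for *RUNX3*. It was 2.58 and 1.50 for *SQLE*, an enzyme of sterol synthesis named after its values were seen. *KCNE5* differed in sign, at 2.45 in colon and -1.08 in jejunum. Each ratio compares 2 libraries, and stage, animal, and dissociation cannot be told apart in it.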
